A study of Mus musculus with 12 samples.

Results

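Trp53, the gene for the tumour suppressor p53, was followed with 9 genes of its immediate circuit in blood stem and progenitor cells carrying a KDM6B transgene, a Tet2 deletion, or both. The 10 genes were taken by symbol from the deposited expression table, which lists 15366 genes for 12 libraries, and all 10 were present and passed the filter on low values. They are Trp53 itself, its regulators Mdm2 and Mdm4, and the target genes Ccng1, Phlda3, Zmat3, Trp53inp1, Sesn1, Gadd45a and Gadd45b. They were taken by name, with no threshold on a measured value, although earlier results of these data were known. No member passed the test in any of 8 comparisons between genotypes, which called between 0% and 14.9% of all genes. The double lesion libraries lay wholly above the Vav Cre libraries for Mdm2, Ccng1, Trp53inp1 and Gadd45a and wholly below them for Mdm4, a separation that 32.8% of all genes showed.

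The libraries came from bone marrow cells of untreated C57BL/6 mice, sorted as LSK cells, the fraction with Sca-1 and Kit but without lineage markers, in which blood stem cells and early progenitors reside. There were 3 libraries in each of 4 genotypes. Double lesion mice carried the human KDM6B transgene driven by the Vav promoter together with Vav Cre and Tet2 flox/flox. KDM6B OE mice carried the transgene with intact Tet2, and their label names no Cre. Tet2 KO mice carried Vav Cre and Tet2 flox/flox, and Vav Cre mice carried the recombinase alone. KDM6B is an eraser of a repressive histone mark, TET2 an enzyme that starts DNA demethylation, and the Vav promoter is active throughout the blood system, so neither lesion is limited to LSK cells. The labels give no age. Nothing in them ties a library to its own animal, so a p-value here reflects variation among samples that may be partly technical.

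p53 is held low in unstressed cells by Mdm2, a ubiquitin ligase that marks it for degradation, and by Mdm4, a related protein that blocks its activation domain. DNA damage and other stresses release p53 from both, chiefly by changing the protein and not the amount of its mRNA, and p53 then switches on genes that stop the cell cycle, repair DNA or start cell death. Mdm2 is itself a p53 target, which closes a feedback loop. In blood stem cells p53 is known for restraining cell division and for removing damaged cells.

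Depth was 21935022 to 26263370 reads on the listed genes per library, and 1 read was worth 0.0373 to 0.0463 CPM (reads scaled to the effective library size). Tet2 averaged 32.9 ± 5.70 and 26.8 ± 4.10 CPM in the double lesion and Tet2 KO libraries, against 79.0 ± 12.3 and 82.1 ± 15.5 CPM in the KDM6B OE and Vav Cre libraries (SD, n = 3 each). Mouse Kdm6b averaged 10.4 ± 1.82 CPM with the transgene and 6.49 ± 0.869 CPM without it (SD, n = 6 each; limma, log2 difference 0.60, adjusted p = 0.0465), and how far reads of the human transgene align to it was not tested. All 9 LSK markers on the list were detected, with sums of 3143 to 3691 CPM in double lesion, 2911 to 3232 CPM for KDM6B OE, 2771 to 3476 CPM for Tet2 KO and 2336 to 2967 CPM for Vav Cre libraries. Vav Cre 2 stood apart by its erythroid marker sum, 3803 CPM against 1770 to 2298 CPM elsewhere, and Tet2 KO 2 by its B cell marker sum, 183 CPM against 65.0 to 110 CPM elsewhere. The erythroid sum lacks Hbb-bs and Hba-a1, which were listed but not present. Neutrophil marker sums ran from 2022 CPM in Vav Cre 1 to 6979 CPM in Tet2 KO 3. Mast cell and basophil sums ran from 103 CPM in Vav Cre 3 to 573 CPM in Tet2 KO 2, with 395 to 479 CPM in double lesion and 111 to 359 CPM in KDM6B OE libraries. Transcripts of Y-linked genes were present in double lesion 1 and 3, Tet2 KO 1 and Vav Cre 1 only. The within-group spread, as the median SD of log2(CPM + 1) over genes, was 0.151 in double lesion, 0.148 in KDM6B OE, 0.209 in Tet2 KO and 0.28 in Vav Cre libraries.

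The promoters of Trp53, Mdm2 and Ccng1 are shown because these are the factor itself, its main inhibitor and the target with the next smallest adjusted p in the double lesion comparison, and because each holds a copy of the p53 consensus decamer, the 10-base unit that p53 recognises as a repeated pair. The sequences are the 250 bases before the annotated start from RefSeq, build GRCm38.p6, written 5′ to 3′ on the strand of the gene, with the decamer in capitals. They span chr11:69580109-69580358 on the + strand for Trp53, chr10:117710759-117711008 on the − strand for Mdm2 and chr11:40755287-40755536 on the − strand for Ccng1.
Trp53: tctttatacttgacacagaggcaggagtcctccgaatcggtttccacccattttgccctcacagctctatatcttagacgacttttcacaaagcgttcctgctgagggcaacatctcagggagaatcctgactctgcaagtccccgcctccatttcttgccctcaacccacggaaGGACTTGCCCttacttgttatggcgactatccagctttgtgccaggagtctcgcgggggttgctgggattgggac
Mdm2: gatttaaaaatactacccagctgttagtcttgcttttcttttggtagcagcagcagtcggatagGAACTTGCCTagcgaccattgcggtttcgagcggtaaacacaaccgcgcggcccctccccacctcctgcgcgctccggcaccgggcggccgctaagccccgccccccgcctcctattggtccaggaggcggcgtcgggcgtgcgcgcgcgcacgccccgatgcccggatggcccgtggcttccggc
Ccng1: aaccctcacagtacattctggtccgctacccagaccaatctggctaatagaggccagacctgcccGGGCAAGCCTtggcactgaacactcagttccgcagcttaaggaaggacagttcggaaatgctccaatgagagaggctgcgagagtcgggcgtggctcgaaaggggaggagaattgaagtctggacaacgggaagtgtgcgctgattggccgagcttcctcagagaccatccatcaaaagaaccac

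The decamer, searched by its published consensus and identical on both strands because the consensus is its own reverse complement, began 75 bases before the start in Trp53, 186 in Mdm2 and 185 in Ccng1. Among the RefSeq windows, 8 of the 10 members had 10 promoter windows between them, and 5 of those windows held a decamer. Gadd45a had 1 that began 40 bases before its RefSeq start, and 1 of the 2 Sesn1 windows had 1 that began 173 bases before the start. All distances are from RefSeq starts, which can differ from those of GENCODE. In GENCODE the − strand genes Ccng1 and Gadd45a start at 40755311 and 67037457, inside their windows. The windows of Mdm4, Phlda3 and Gadd45b had no match, and Zmat3 and Trp53inp1 were not among the windows matched. Over all 32851 windows of the same length, 7.13% held the decamer. A match is a description of letters, not a bound site, and the well-known p53 elements of Mdm2 and Gadd45a lie in introns, outside these windows.

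On GRCm38 (GENCODE annotation, 1-based), Trp53 lies on chromosome 11 from 69580359 to 69591873, Ccng1 on chromosome 11 from 40748552 to 40755311 and Mdm2 on chromosome 10 from 117688875 to 117710758. Sesn1 and Gadd45b are also on chromosome 10, Mdm4 and Phlda3 on chromosome 1, Zmat3 on chromosome 3, Trp53inp1 on chromosome 4 and Gadd45a on chromosome 6. All 10 are annotated as protein-coding.

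The 10 genes differed widely in level. Divided by the length of their merged exons, mean levels over the 12 libraries were 64.7 CPM per kilobase for Trp53 and 56.4 CPM per kilobase for Sesn1, a sestrin that restrains mTORC1 and limits oxidative stress. Ccng1 followed at 28.1 CPM per kilobase and Mdm2 at 16.7 CPM per kilobase. Gadd45b, Gadd45a, Phlda3, Mdm4 and Trp53inp1 lay between 4.90 and 8.77 CPM per kilobase, and Zmat3 was lowest at 0.181 CPM per kilobase. Zmat3 rested on 10 to 80 reads per library, while Trp53 rested on 5075 to 7165 reads.

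**Figure D1:**
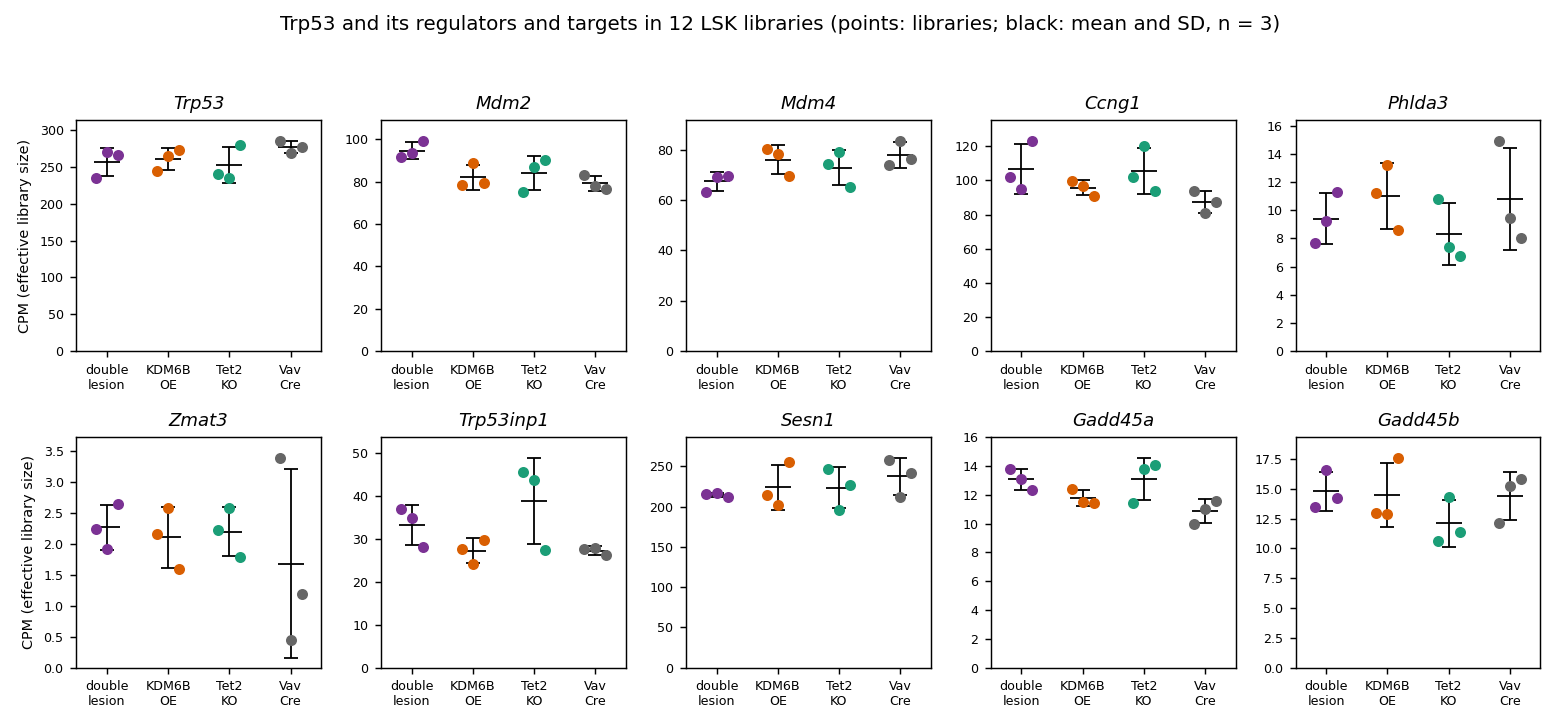
Level of each of the 10 genes in CPM (linear axis from 0) in the 12 libraries, with double lesion, KDM6B OE, Tet2 KO and Vav Cre from left to right; coloured points are libraries and black bars the mean and SD (n = 3). Trp53 sat between 235 and 285 CPM in every library, and Mdm2 was highest in the 3 double lesion libraries.

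Trp53 mRNA varied little between the genotypes. It had 235, 270 and 266 CPM in double lesion, 244, 265 and 273 CPM in KDM6B OE, 241, 235 and 280 CPM in Tet2 KO, and 285, 269 and 277 CPM in Vav Cre libraries. The highest library was only 1.21 times the lowest, and the ranges of groups next to each other in mean level all overlapped. Double lesion differed from Vav Cre by -0.11 ± 0.10 on the log2(CPM + 1) scale (SE; limma, adjusted p = 0.472), with a 95% interval that spans 0.80 to 1.07 times the Vav Cre level. The corresponding differences were -0.09 ± 0.10 for KDM6B OE (limma, adjusted p = 0.633) and -0.14 ± 0.10 for Tet2 KO (limma, adjusted p = 0.544). These measure mRNA and say nothing of the amount or activity of the p53 protein.

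Mdm2 and Mdm4, the inhibitors, lay on opposite sides of their Vav Cre levels in the double lesion. Mdm2 had 91.5, 93.3 and 99.1 CPM in double lesion, 78.2, 88.8 and 79.2 CPM in KDM6B OE, 75.2, 86.7 and 90.3 CPM in Tet2 KO, and 83.1, 78.1 and 76.4 CPM in Vav Cre libraries. Every double lesion library was above every library of the other genotypes, and the ranges of the other genotypes overlapped. Double lesion exceeded Vav Cre by 0.25 ± 0.11 on the log2(CPM + 1) scale, a 95% interval of 1.02 to 1.39 times, at an unadjusted p of 0.0318 in limma's fit over all genes and an adjusted p of 0.117. The differences were 0.05 ± 0.11 for KDM6B OE (limma, adjusted p = 0.828) and 0.08 ± 0.11 for Tet2 KO (limma, adjusted p = 0.765). When each library was scaled to an equal read total in place of the authors' effective size, the double lesion difference was 0.34 and passed (limma, adjusted p = 0.0426), whereas adjusted p ranged up to 0.267 over the 20 alternatives and passed in no other.

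Mdm4 had 63.2, 69.3 and 69.7 CPM in double lesion, 80.3, 78.1 and 69.5 CPM in KDM6B OE, 74.4, 78.9 and 65.2 CPM in Tet2 KO, and 73.7, 83.4 and 76.4 CPM in Vav Cre libraries. All 3 double lesion libraries were below all 3 Vav Cre libraries, but the double lesion range overlapped those of KDM6B OE and Tet2 KO. The difference from Vav Cre was -0.20 ± 0.11 (limma, adjusted p = 0.229). Because scaling cancels within a library, the ratio of Mdm2 to Mdm4 CPM was also taken, a measure chosen after the values were seen and given without a test. It was 1.45, 1.35 and 1.42 in double lesion, 0.97, 1.14 and 1.14 in KDM6B OE, 1.01, 1.1 and 1.38 in Tet2 KO, and 1.13, 0.94 and 1.0 in Vav Cre libraries. The double lesion ratios averaged 1.41 ± 0.05, against 1.02 ± 0.10 in Vav Cre (SD, n = 3 each), and Tet2 KO 3 alone among the other libraries came within their range. Because Mdm2 and Mdm4 each separated double lesion from Vav Cre, in opposite directions, their ratio had to separate these groups too.

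**Figure D2:**
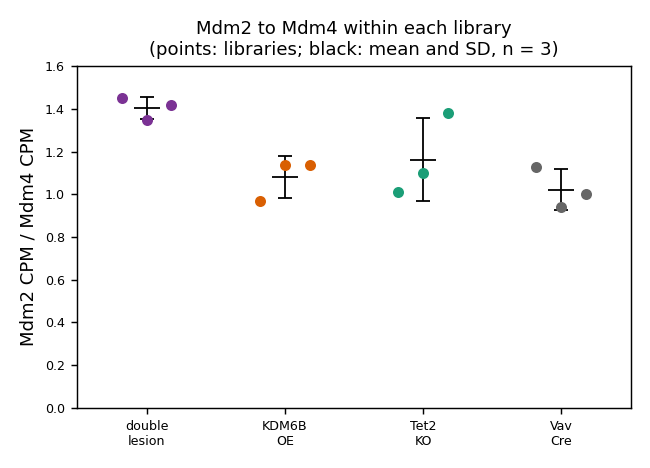
Ratio of Mdm2 CPM to Mdm4 CPM within each library (linear axis from 0), by genotype from double lesion at the left to Vav Cre at the right; points are libraries and black bars the mean and SD (n = 3). The double lesion libraries lay at 1.35 to 1.45 and the Vav Cre libraries at 0.94 to 1.13. The ratio was chosen after the values were seen, and its separation of these groups follows from the values of Mdm2 and Mdm4.

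Among the targets that act on the p53 loop or on cell survival, Ccng1 and Trp53inp1 were higher on average where Tet2 was floxed. Ccng1, cyclin G1, which recruits a phosphatase to Mdm2, had 102, 94.7 and 123 CPM in double lesion, 99.5, 96.8 and 90.7 CPM in KDM6B OE, 102, 120 and 94.0 CPM in Tet2 KO, and 93.5, 80.7 and 87.6 CPM in Vav Cre libraries. Both genotypes with floxed Tet2 were wholly above Vav Cre, and both overlapped KDM6B OE. The double lesion difference from Vav Cre was 0.28 ± 0.12 (limma, adjusted p = 0.139; unadjusted p of 0.042), and that of Tet2 KO was 0.26 ± 0.12 (limma, adjusted p = 0.377).

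Over all libraries Ccng1 averaged 106 ± 12.6 CPM with floxed Tet2 and 91.5 ± 6.76 CPM without it (SD, n = 6 each). That is a log2 difference of 0.21 ± 0.09 (SE; limma, adjusted p = 0.306; two-sided exact permutation p = 0.0238). Trp53inp1, which promotes p53-dependent cell death and autophagy, had 37.0, 35 and 28.1 CPM in double lesion, 27.8, 24.1 and 29.9 CPM in KDM6B OE, 45.7, 43.8 and 27.4 CPM in Tet2 KO, and 27.8, 28.0 and 26.2 CPM in Vav Cre libraries. In each floxed genotype 2 libraries were above every unfloxed library, and the remaining library lay within the unfloxed range.

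Trp53inp1 averaged 36.1 ± 7.65 CPM with floxed Tet2 and 27.3 ± 1.97 CPM without it (SD, n = 6 each), a log2 difference of 0.37 ± 0.13 (SE; limma, adjusted p = 0.243; exact permutation p = 0.0281). The Tet2 KO difference from Vav Cre was 0.46 ± 0.19 (limma, adjusted p = 0.327, or 0.228 with the replicate block). Every Cre-bearing group but Vav Cre carries floxed Tet2, and KDM6B OE is not labelled with Cre. The floxed comparison therefore sets some libraries not labelled with Cre against libraries with it. The same holds for the transgene comparison, and between KDM6B OE and Vav Cre the transgene and Cre cannot be told apart.

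Gadd45a and Gadd45b encode related stress proteins that bind the MAP kinase kinase kinase Mekk4, and Gadd45a is the classic p53-dependent member of the family. Gadd45a had 13.8, 13.1 and 12.3 CPM in double lesion, 12.4, 11.5 and 11.4 CPM in KDM6B OE, 11.4, 13.8 and 14.1 CPM in Tet2 KO, and 10.0, 11 and 11.6 CPM in Vav Cre libraries. The double lesion libraries were all above the Vav Cre libraries, and Tet2 KO 1 lay within the Vav Cre range. With floxed Tet2 it averaged 13.1 ± 1.04 CPM, against 11.3 ± 0.773 CPM without (SD, n = 6 each), a log2 difference of 0.19 ± 0.12 (SE; limma, adjusted p = 0.47; exact permutation p = 0.0173). The exact p-values of Ccng1, Trp53inp1 and Gadd45a with floxed Tet2 are the smallest of the 20 unadjusted tests. With floxed Tet2 the exact permutation test gave 0.0519 for Mdm2, 0.0606 for Mdm4 and 0.156 or more for the remaining members. With the transgene it gave 0.136 or more for every member. Its exons share 337 bases with E230016M11Rik on the opposite strand, and reads of the pair cannot be told apart in libraries that do not mark strand.

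Gadd45b had 13.5, 16.6 and 14.2 CPM in double lesion, 13, 12.9 and 17.6 CPM in KDM6B OE, 10.6, 14.3 and 11.4 CPM in Tet2 KO, and 12.1, 15.2 and 15.8 CPM in Vav Cre libraries. The 4 ranges overlapped, and double lesion and Vav Cre differed by 0.04 ± 0.20 on the log2 scale (limma, adjusted p = 0.915). The 95% interval of that difference, 0.77 to 1.38 times as a ratio of CPM + 1, leaves a modest change in either direction undetectable at this spread.

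The remaining targets were also without a call. Sesn1 had 215, 217 and 212 CPM in double lesion, 214, 202 and 255 CPM in KDM6B OE, 247, 196 and 227 CPM in Tet2 KO, and 258, 212 and 242 CPM in Vav Cre libraries, and all ranges overlapped. Phlda3, which competes with Akt for membrane lipids and so restrains it, had 7.65, 9.25 and 11.3 CPM in double lesion, 11.2, 13.2 and 8.58 CPM in KDM6B OE, 10.8, 7.41 and 6.72 CPM in Tet2 KO, and 14.9, 9.42 and 8.04 CPM in Vav Cre libraries. The Phlda3 ranges overlapped as well. The double lesion differences from Vav Cre were -0.14 ± 0.12 for Sesn1 (limma, adjusted p = 0.441) and -0.15 ± 0.26 for Phlda3 (limma, adjusted p = 0.726).

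Zmat3, an RNA-binding zinc finger protein that alters splicing downstream of p53, had 2.24, 1.92 and 2.65 CPM in double lesion, 2.16, 2.58 and 1.60 CPM in KDM6B OE, 2.23, 2.59 and 1.79 CPM in Tet2 KO, and 3.40, 0.457 and 1.19 CPM in Vav Cre libraries. The Vav Cre libraries held both the highest and the lowest of the 12 values. The double lesion difference of 0.43 ± 0.34 (limma, adjusted p = 0.407) therefore carries an interval of 0.81 to 2.25 times, the widest of the 10 genes in this comparison. These are ratios of CPM + 1, and at so low a level the ratio of the CPM values themselves would span more.

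**Figure D3:**
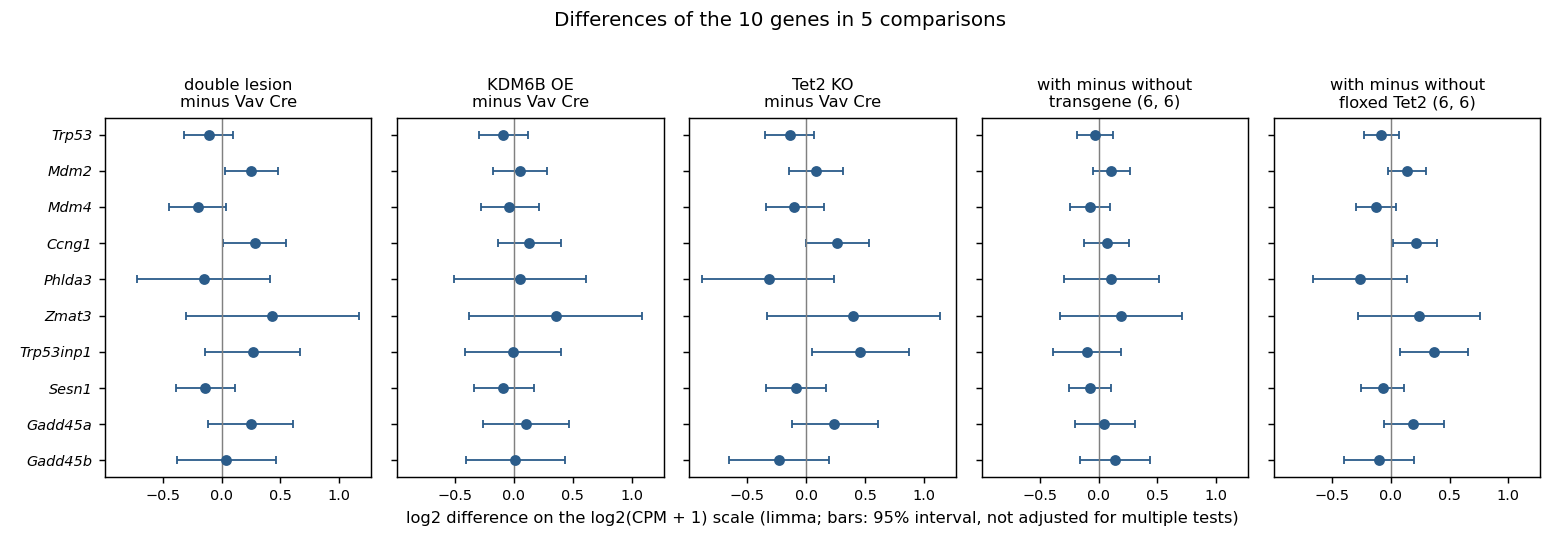
Log2 difference of each of the 10 genes on the log2(CPM + 1) scale in 5 comparisons, from left to right double lesion, KDM6B OE and Tet2 KO each minus Vav Cre, then 6 libraries with minus 6 without the transgene, and 6 with minus 6 without floxed Tet2; bars are 95% intervals from limma, not adjusted for multiple tests. Intervals clear of 0 belong to Mdm2 and Ccng1 in double lesion minus Vav Cre, to Trp53inp1 in Tet2 KO minus Vav Cre, and to Trp53inp1 and Ccng1 with minus without floxed Tet2.

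Across the 8 comparisons, limma called 0 of the 10 members in each at an adjusted p under 0.05, and edgeR and DESeq2 on the recovered reads also called 0. Of all 13046 genes tested, limma called 14.9% between double lesion and Vav Cre, 0.598% between KDM6B OE and Vav Cre, and 0.0307% between Tet2 KO and Vav Cre, which was 4 genes, or 1 with the replicate number as a block. The double lesion calls comprised 958 higher and 989 lower genes, a split that became 1286 higher and 763 lower with equal read totals. With and without the transgene 4.35% were called, and with and without floxed Tet2 0.207%. Between double lesion and Tet2 KO 0.215% were called, and between double lesion and KDM6B OE and for the interaction of the 2 lesions 0% each. Even the highest of these shares corresponds to between 1 and 2 genes in 10, so a count of 0 is near the background throughout. At an unadjusted p under 0.05, limma gave 2 members between double lesion and Vav Cre (32.3% of all genes), 1 between Tet2 KO and Vav Cre (13.5%), 2 with and without floxed Tet2 (14.7%), and 0 in the other 5 comparisons.

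Groups did not overlap for 5 of 10 members between double lesion and Vav Cre, where 32.8% of all genes were separated. The 4 higher were Mdm2, Ccng1, Trp53inp1 and Gadd45a, and the lower was Mdm4. Between Tet2 KO and Vav Cre only Ccng1 was separated (12.6% of all genes), and between KDM6B OE and Vav Cre no member was (22.6% of all genes). Mdm2 was the single member separated between double lesion and KDM6B OE (18.7% of all genes) and between double lesion and Tet2 KO (21.6% of all genes). The median difference of the 10 members between double lesion and Vav Cre was 0.14, against 0.05 for all genes tested. The 3 comparisons with Vav Cre share its libraries and are not independent. In bulk samples a change in the make-up of the sorted cells and a change in RNA per cell cannot be told apart.

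Patterns most like those of 5 members were looked up over the 12 libraries and are given as description. Trp53 was closest to Mxd3, a repressor of the Myc network (Pearson r = 0.85, Spearman rho = 0.78), followed by Ciapin1 and Zdhhc3. Mdm2 was closest to the unnamed transcripts Gm16998 (r = 0.87, rho = 0.87) and 9330020H09Rik, and to the cathepsin gene Ctsh. Ccng1 was closest to Tmlhe, an enzyme of carnitine synthesis (r = 0.91, rho = 0.90), then Pbld2 and Rapgef2. Gadd45a was closest to Chn2 (r = 0.90, rho = 0.92) and Gria3, and Gadd45b to Bysl (r = 0.84, rho = 0.83), Mir196b and Ube2j2. With 13046 genes to choose from, and differences in genotype and depth between the libraries that bear on many genes together, high values of r arise readily.

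The wider p53 target list held 33 tested genes of 35, and most of them also stayed without a call. Between double lesion and Vav Cre, Btg2 and Plk3 rose, Psrc1 and Rps27l fell, and the median of the list was 0.13, against 0.05 for all genes. These 4 calls of 33 are no more than the 14.9% of all genes called in this comparison. Rps27l (-0.65; limma, adjusted p = 0.0459, range 0.00973 to 0.186 over the alternatives) kept its call in 4 of 12 single-library omissions, those of Tet2 KO 1, Tet2 KO 2, Vav Cre 1 and Vav Cre 3, and Plk3 lost its call without double lesion 1 (1.44) or double lesion 3 (1.35). With the transgene, Btg2, Plk3, Sesn2 and Pmaip1 rose and none fell, at a list median of 0.12 against 0.02 for all genes, where 4.35% of all genes were called in either direction and 2.52% rose. Btg2 also rose between KDM6B OE and Vav Cre and between double lesion and Tet2 KO, and no other target was called in the remaining comparisons. The label of KDM6B OE names no Cre, so transgene and Cre cannot be separated between KDM6B OE and Vav Cre. In the transgene comparison they are separated only in part, while double lesion and Tet2 KO both carry Cre.

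Cdkn1a, which encodes the cell cycle inhibitor p21 and is the best known p53 target, had 26.7, 36.6 and 22.4 CPM in double lesion, 42.7, 29.3 and 22.2 CPM in KDM6B OE, 20.0, 24.2 and 32.8 CPM in Tet2 KO, and 31.5, 23.0 and 32.4 CPM in Vav Cre libraries. The 4 ranges overlapped, and double lesion differed from Vav Cre by -0.03 ± 0.26 (limma, adjusted p = 0.948). The pro-death genes Bax and Bbc3 lay on opposite sides of Vav Cre in double lesion, KDM6B OE and Tet2 KO alike, without a call. In KDM6B OE and Tet2 KO the differences from Vav Cre were -0.30 and -0.23 for Bax and 0.43 and 0.42 for Bbc3. The Vav Cre libraries had 107, 144 and 104 CPM of Bax, the highest being Vav Cre 2. Bax averaged 89.6 ± 7.24 CPM in double lesion and 119 ± 22.3 CPM in Vav Cre libraries (SD, n = 3 each; limma, log2 difference -0.39, adjusted p = 0.0939). Bbc3, which encodes Puma, averaged 8.16 ± 0.349 CPM in double lesion and 5.15 ± 0.814 CPM in Vav Cre libraries (SD, n = 3 each; limma, log2 difference 0.58, adjusted p = 0.0576).

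Btg2, an antiproliferative gene, had 92.8, 119 and 144 CPM in double lesion, 97.4, 103 and 96.1 CPM in KDM6B OE, 26.2, 46.2 and 45.1 CPM in Tet2 KO, and 31.1, 33.8 and 43.5 CPM in Vav Cre libraries. The 6 libraries with the transgene lay wholly above the 6 without, a log2 difference of 1.52 (limma, adjusted p = 0.00012). The kinase gene Plk3 averaged 4.45 ± 1.62 CPM with the transgene and 1.17 ± 0.644 CPM without (SD, n = 6 each; limma, log2 difference 1.32, adjusted p = 0.0191). Sesn2, a sestrin like Sesn1, averaged 25.1 ± 2.73 CPM with and 13.6 ± 5.52 CPM without (SD, n = 6 each; limma, 0.93, adjusted p = 0.0411). Pmaip1, which encodes Noxa, averaged 5.85 ± 1.92 CPM with and 2.46 ± 0.85 CPM without (SD, n = 6 each; limma, 0.96, adjusted p = 0.0442).

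Only the Btg2 call held whichever library was left out of the transgene comparison. Plk3 lost its call without double lesion 1 (1.28), double lesion 3 (1.24), KDM6B OE 1 (1.20), KDM6B OE 2 (1.28) or Tet2 KO 3 (1.26). Sesn2 kept its call only without Tet2 KO 3 (1.07) or Vav Cre 3 (1.09), and Pmaip1 only without KDM6B OE 3 (1.14), Tet2 KO 2 (1.1) or Vav Cre 3 (1.04). In the other omissions Sesn2 ranged from 0.74 to 0.96 and Pmaip1 from 0.87 to 1.05, always higher with the transgene.

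Btg2 is also an immediate early gene, one of the class that cells induce within minutes of a stimulus. The other 31 genes of the immediate early list summed to 9840 to 13980 CPM in double lesion, 9825 to 13459 CPM for KDM6B OE, 2791 to 4781 CPM for Tet2 KO and 2492 to 4139 CPM for Vav Cre libraries. Of the 31 genes of the whole list that could be tested, Btg2 included, 26 rose with the transgene (2.52% of all genes did), with a median of 1.55 against 0.02 for all genes, among them Ier5, Klf6, Ier2, Egr1, Junb, Dusp1, Zfp36 and Klf2. The sums separated the same libraries as Btg2, Plk3 and Sesn2 did, while Pmaip1 overlapped, with 2.97 CPM in KDM6B OE 3 and 3.84 CPM in Tet2 KO 2. The separation was narrow for Plk3, with 2.15 CPM in KDM6B OE 3 and 2.01 CPM in Vav Cre 2. It was also narrow for Sesn2, with 21.7 CPM in double lesion 3 and 21.3 CPM in Tet2 KO 3. The share of all genes so separated was not taken. The part of the immediate early genes in the target values was not tested. Gadd45b, which is itself known as a rapid response gene, differed by 0.14 ± 0.14 with the transgene (limma, adjusted p = 0.55).

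**Figure D4:**
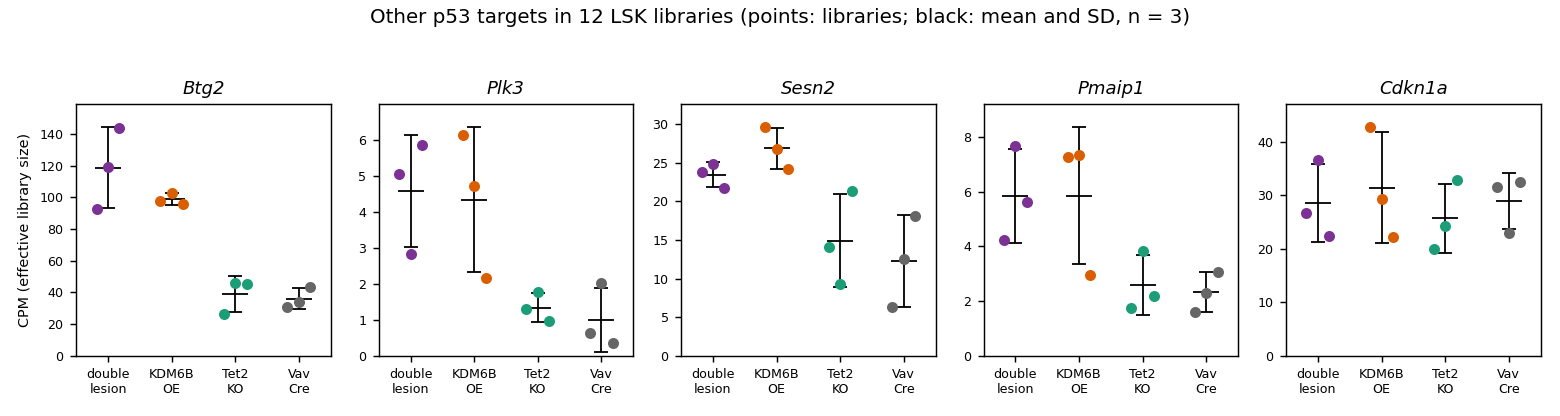
Level in CPM (linear axis from 0) of Btg2, Plk3, Sesn2, Pmaip1 and Cdkn1a in the 12 libraries, with double lesion, KDM6B OE, Tet2 KO and Vav Cre from left to right; points are libraries and black bars the mean and SD (n = 3). The libraries with the transgene had 92.8 to 144 CPM of Btg2, against 26.2 to 46.2 CPM in those without, while the ranges of Cdkn1a overlapped.

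Genes that act upstream of p53 gave 7 calls of 23 tested (25 listed) between double lesion and Vav Cre, where 14.9% of all genes were called, a share that would be between 3 and 4 of 23. Those that rose were Trp53bp1 and Hipk2, a DNA damage adaptor and a kinase of p53, with Ppp1r13b, a p53 cofactor, and Mapk14, the p38 kinase. Those that fell were Npm1, Rpl11 and Rpl5, nucleolar and ribosomal proteins that bind Mdm2 when ribosome assembly is disturbed. All 7 differed from Vav Cre in the same direction in KDM6B OE and Tet2 KO, with 0 called (0.598% and 0.0307% of all genes). The differences were 0.80 and 0.62 for Hipk2, 0.63 and 0.32 for Trp53bp1, 0.46 and 0.32 for Ppp1r13b, and 0.33 and 0.32 for Mapk14. Npm1 had -0.43 and -0.35, Rpl11 -0.45 and -0.39, and Rpl5 -0.40 and -0.38. Between double lesion and KDM6B OE or Tet2 KO, 0 of 23 were called (0% and 0.215% of all genes). Hipk2 averaged 49.7 ± 1.05 CPM in double lesion and 25.5 ± 9.28 CPM in Vav Cre libraries (SD, n = 3 each; limma, log2 difference 1.0, adjusted p = 0.027). Npm1 averaged 611 ± 65.3 CPM in double lesion and 983 ± 225 CPM in Vav Cre libraries (SD, n = 3 each; limma, -0.67, adjusted p = 0.0142). Vav Cre 2 was the extreme library for both, with 14.9 CPM of Hipk2 and 1240 CPM of Npm1, and it is also the library with the high erythroid sum, whose part in these values was not tested.

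Without Vav Cre 2, Npm1 was the only one of the 7 still called, and without double lesion 1 none was, by limma. Without double lesion 2 there were 3 calls, without double lesion 3 there were also 3, and fitting the 6 libraries of these genotypes alone gave 0. All-gene calls fell as well, to 610 without Vav Cre 2 and to 300, 747 and 827 without double lesion 1, 2 and 3. They were 289 in the fit of the 6 libraries, against 1947 in the reported fit. Hipk2 lost its call without Vav Cre 2 (0.67) or double lesion 1 (0.99), 2 (1.01) or 3 (1.02), and Npm1 without double lesion 1 (-0.58). The damage kinases Atm and Chek2 were not called between double lesion and Vav Cre, with differences of 0.07 ± 0.13 (limma, adjusted p = 0.759) and -0.19 ± 0.14 (limma, adjusted p = 0.387). Cdkn2a was not analysed here.

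Of 16 cell cycle genes that p53 is known to repress through p21 and the DREAM complex, and that other routes control too, 13 fell between double lesion and Vav Cre, where 7.58% of all genes fell. Foxm1 (-0.06; limma, adjusted p = 0.922), Mybl2 (-0.39; limma, adjusted p = 0.264) and Plk1 (-0.49; limma, adjusted p = 0.227) were not called. With the transgene 10 of the 16 fell, against 1.83% of all genes. The list medians were -0.88 and -0.44 in these comparisons, against 0.05 and 0.02 for all genes. With floxed Tet2 the list median was nearly the same as with the transgene, -0.43, though 0 of the 16 were called (0.207% of all genes). It was -0.31 for KDM6B OE and -0.32 for Tet2 KO against Vav Cre, with 0 called in each (0.598% and 0.0307% of all genes). Top2a, which untangles DNA, averaged 352 ± 64.9 CPM in double lesion and 702 ± 85.0 CPM in Vav Cre libraries (SD, n = 3 each; limma, log2 difference -1.0, adjusted p = 0.00282). Cdk1, the mitotic kinase, averaged 136 ± 25.6 CPM in double lesion and 314 ± 80.8 CPM in Vav Cre libraries (SD, n = 3 each; limma, -1.19, adjusted p = 0.00399). Cenpf, Birc5, Bub1, Ccnb2, Cdc25c and Ccna2 fell by 0.74 to 1.18 on the same scale.

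The list summed to 1510 to 2224 CPM in double lesion, 2563 to 3000 CPM for KDM6B OE, 2598 to 3276 CPM for Tet2 KO and 3424 to 4173 CPM for Vav Cre libraries. Cdkn1a, the p21 gene, was not called between double lesion and Vav Cre, with the difference of -0.03 ± 0.26 given above and a 95% interval of -0.58 to 0.52. That is mRNA and says nothing of the p21 protein, and the part of p53 or p21 in these values was not tested. The number of list genes called between double lesion and Vav Cre stayed at 11 to 13 when any 1 library was left out. All-gene calls ranged from 300 to 3589 in these omissions. With the transgene the number of list genes called fell to 1 without KDM6B OE 1 or KDM6B OE 2. Of all genes, 112 and 94 were then called, against 568 in the reported fit. The list number was 3 without double lesion 1 or Tet2 KO 3 (133 and 174 of all genes). It was 4 without double lesion 3, Tet2 KO 1 or Vav Cre 2 (155, 581 and 289 of all genes). It was 5 without KDM6B OE 3, Tet2 KO 2 or Vav Cre 1 (262, 214 and 388 of all genes). Without double lesion 2 it was 6 (193 of all genes), and without Vav Cre 3 it was 13 (2777 of all genes).

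**Figure D5:**
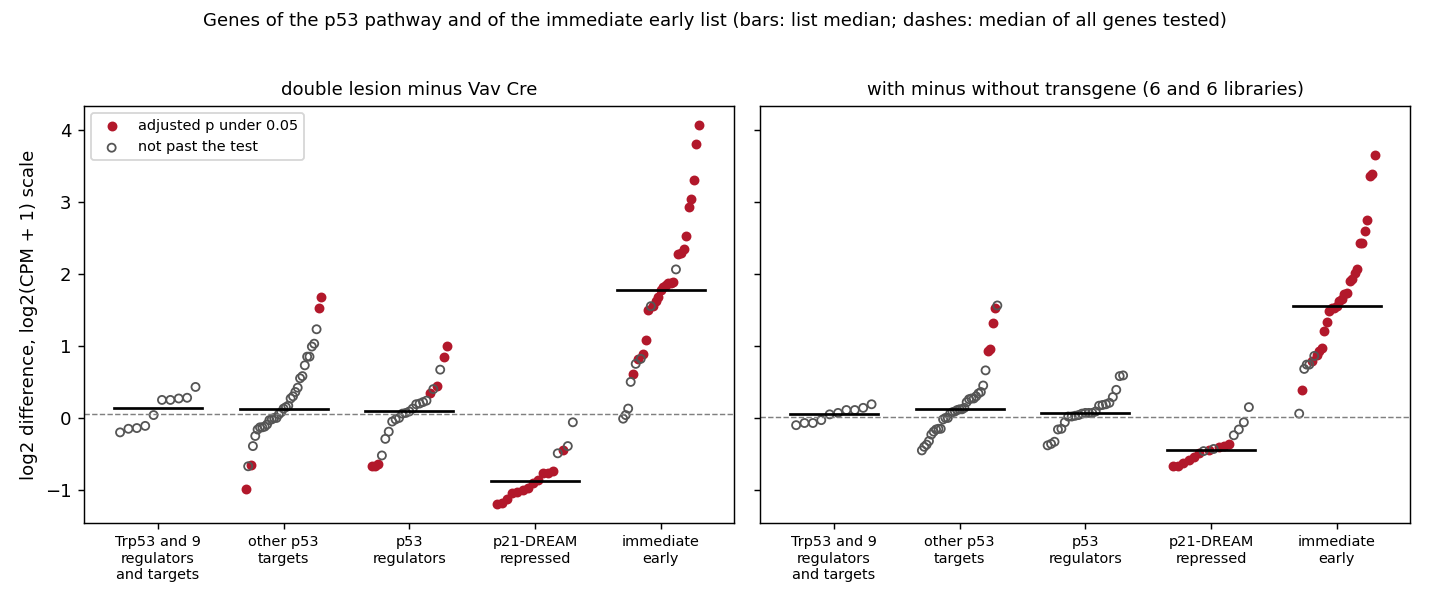
Log2 difference of every tested gene on the log2(CPM + 1) scale, in double lesion minus Vav Cre (left) and in 6 libraries with minus 6 without the transgene (right), for the 10 genes of the p53 circuit and 4 other lists; filled points passed limma's test at an adjusted p under 0.05, bars are list medians and the dashed line the median of all genes. The 10 circuit genes lay within -0.20 to 0.43 in the left panel, whereas 13 of 16 p21-DREAM genes fell and 23 of 31 immediate early genes rose, against 7.58% of all genes that fell and 7.34% that rose.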

How the data were processed

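Poly(A) RNA from 12 sorted LSK samples was amplified with SMARTer v4 and made into Nextera libraries, which do not mark strand, per the labels' protocols. The submitters' processing notes name mm10 as the build and, among tools, edgeR 3.8.6, HTSeq 0.6.0 and TopHat2 2.0.10. Annotation and strand setting were not given in the sources used here. Values deposited by the authors are a signal, CPM on effective library sizes, with columns that sum to 947374 to 1076730. Each value equals whole reads over the library's own factor (100% of values, within 1e-06 of a read), so the read counts behind the authors' values were recovered.

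CPM values were tested on log2(CPM + 1) with limma 3.58.1 (R 4.3.3), moderated with a trend, over 13046 genes with CPM above 1 in at least 3 libraries, with 1 mean per genotype over all 12 libraries. The Benjamini-Hochberg adjustment ran over all genes within each of 8 comparisons, with calls at an adjusted p under 0.05. A log2(CPM + 1) difference understates changes of low genes. For single genes, 6 libraries with and 6 without a lesion were compared by a two-sided exact permutation test in SciPy 1.17.1, in 20 such tests for the 10 genes with no adjustment across them. The smallest p it can give is 0.00216, and 3 libraries against 3 cannot go below 0.1. Alternatives were a pseudocount of 0.25, no filter, equal read totals, edgeR 4.0.16 and DESeq2 1.42.0 on the recovered reads, only the compared groups, a replicate block, a term for Y-linked transcripts, and leaving out each library. Shared replicate numbers were checked by the correlation of same-numbered libraries' deviations from their group means: Tet2 KO and Vav Cre had 0.3 to 0.34 in all 3 pairs and met the limit of 0.1, a pairing read from the data and not from the labels, while no other pair of genotypes met it in every pair. The scripts were tested on simulated data. Exon lengths and gene positions are from GENCODE on GRCm38, and promoters from RefSeq on GRCm38.p6.

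The genes and lists were chosen with earlier results of these data known. All 10 genes were named; of the other lists, up to 8 called genes each with the smallest adjusted p, besides Cdkn1a, Bax, Bbc3, Pmaip1, Atm, Chek2 and Cdkn2a, and for 5 genes the 3 with the highest correlation, of which 1 is not reported here.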

Additional observations from a re-analysis of the deposited data

How the results depend on the processing

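Of 1570 fits of the 10 genes under the 20 alternatives, 1 gave a call: with equal read totals 1 member, Mdm2, was called between double lesion and Vav Cre. In the other settings the count of members called stayed at 0 in all comparisons, the range over single-library omissions being 0 to 0 in each. Equal totals moved the median of all genes by up to 0.076 on the log2 scale. With a term for Y-linked transcripts the double lesion differences from Vav Cre were 0.26 for Mdm2 (limma, adjusted p = 0.138) and 0.24 for Ccng1 (limma, adjusted p = 0.226). Called genes overall varied far more. Between double lesion and Vav Cre there were 1947 in the reported fit and 289 (only the compared groups) to 3589 (without Vav Cre 3) over the alternatives, with 610 without Vav Cre 2. Between KDM6B OE and Vav Cre there were 78, and 22 to 1936 over the alternatives. The corresponding counts were 4 and 0 to 305 for Tet2 KO and Vav Cre, 568 and 94 to 2777 for the transgene, 27 and 2 to 360 for floxed Tet2, and 28 and 9 to 143 for double lesion and Tet2 KO. Leaving out Vav Cre 3 gave the highest count for double lesion, KDM6B OE and Tet2 KO each against Vav Cre and for the transgene, and DESeq2 the highest for floxed Tet2 and for double lesion against Tet2 KO. Between double lesion and KDM6B OE limma called 0 (771 at an unadjusted p under 0.05), edgeR 0, DESeq2 20 and the fit of only the compared groups 61. The interaction gave 0 by limma (578 at an unadjusted p under 0.05), 0 by edgeR and 5 by DESeq2. The causes were not tested. Rps27l lost its call between double lesion and Vav Cre in 12 of 20 alternatives and Ppp1r13b in 13, with no change of sign.

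Same-numbered libraries of Tet2 KO and Vav Cre deviated together in all 3 pairs, and those of the other 5 pairs of genotypes did so in 1 or 2 pairs of 3. Of 36 comparisons of a library with another genotype, its own number was the closest in 22, a hint from the data and not from the design. With the replicate block the members called stayed at 0 in every comparison, while all-gene calls were 2699 between double lesion and Vav Cre, 284 between KDM6B OE and Vav Cre, 1516 for the transgene, 97 for floxed Tet2 and 1 between Tet2 KO and Vav Cre. Calls in the wider lists also grew, to 7 of 33 p53 targets between double lesion and Vav Cre (2699 of all 13046 genes). With the transgene they grew to 7 of 33 targets and 6 of 23 upstream genes (1516 of all 13046 genes).

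Depth limits Zmat3 most, with 10 reads in Vav Cre 2, and no other member rested on fewer than 160 reads in a library.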
